A study of Rattus norvegicus with 4 samples.

Results

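The genes of the proteasome were followed in cultured neonatal rat heart muscle cells that had received 1 of 4 synthetic microRNA mimics. The members are the rows of the expression table whose symbol is Psm followed by a letter from a to g and a digit, which gave 46 of 15731 genes. Of these, 45 encode parts of the proteasome or factors that assemble or regulate it. The remaining gene, Psmc3ip, shares the symbol pattern but encodes a protein of meiotic recombination and is kept apart from every count below. Psma8 and Psme3 had no row and were not analysed here. The cells were ventricular cardiomyocytes of wild type Wistar rats, labelled as postnatal day 1. The transfected mimic was that of hsa-miR-106b-5p for 1 library, of hsa-miR-93-5p for another and of hsa-miR-25-3p for the next, while the control cells received cel-miR-67, a worm microRNA, and RNA was taken 72 h later. The labels and the study's methods give the mimic dose as 25 with a unit of mM. Each mimic had 1 library, so no value below has a spread between cultures, and no difference could be tested against one.

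The proteasome is the barrel-shaped protease that degrades proteins tagged with ubiquitin. Its 20S core is built from alpha rings, which form the gate, and beta rings, which hold the cutting sites of Psmb5, Psmb6 and Psmb7. A 19S cap of ATPases and non-ATPase subunits binds the ubiquitin tag, removes it, unfolds the substrate and feeds it into the core. Under interferon, cells make Psmb8, Psmb9 and Psmb10, which take the places of Psmb5, Psmb6 and Psmb7 in the immunoproteasome, a form abundant in white blood cells. In heart muscle the proteasome turns over sarcomere proteins and takes part in atrophy and in responses to protein damage.

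The mimics fall into a pair and a single by their seed, the bases at positions 2 to 8 that pair with target RNA. The sequences below are the rat counterparts from RefSeq, which lie together on the minus strand of rat chromosome 12 in build GRCr8, at chr12:22157103-22157123, chr12:22156894-22156916 and chr12:22156652-22156673 in the order shown. Seeds are in capitals, and they show why miR-93 is set directly against miR-106b below: these share all 7 seed bases, and miR-25 does not share them.
rno-miR-106b-5p: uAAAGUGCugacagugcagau
rno-miR-93-5p: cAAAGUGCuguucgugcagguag
rno-miR-25-3p: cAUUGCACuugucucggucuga

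Values are RPKM, reads per kilobase of gene model and per M reads of library size, as deposited. Library sizes behind them were 22.7 M to 29.7 M reads, of which 60.4% to 66.9% lay on listed genes. The reads behind each value were recovered from the RPKM steps, and intervals given here are exact 95% intervals that cover counting error between 2 libraries only. A gene was tested where its RPKM was above 1.0 in both libraries and was called where it differed by more than 1.3-fold. The study's results text gives cutoffs of 1.0 and 1.3-fold, while its methods give an RPKM above 2.0 in both libraries. The counts over all genes used here are larger than those the study reports for each mimic and direction. Cardiomyocyte markers were high in all 4 libraries, with 7 markers summing to 3605 to 5999.7 RPKM. They were lowest under miR-25, where all 7 were called lower than under cel-miR-67 (100%, against 22.6% of all genes). Scaling by reads on listed genes left 6 of these calls. Under miR-106b and under miR-93, 2 of 7 were lower (28.6%, against 12.7% and 15.6%). Tnni3 was called higher with both (14.3%, against 11.9% and 15.1%), at log2 ratios of 0.63 and 0.49. Fibroblast markers moved as well: 6 of them summed to 381 RPKM under miR-106b, 462 under miR-93, 235 under miR-25 and 521 under cel-miR-67. In that order of mimics 4, 4 and 5 were called lower (66.7%, 66.7% and 83.3%, against 12.7%, 15.6% and 22.6% of all genes). Scaling by reads on listed genes made these 4, 3 and 4. Lum went the other way under miR-25, where it was called higher at 0.87. The part of these shifts in the proteasome values was not tested. In such cultures fewer cells of a type and less RNA per cell cannot be told apart.

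The proteasome genes were expressed at high and similar levels in the 4 cultures, with the immunoproteasome genes far below the rest. The median over the 45 genes was 55.5 RPKM under miR-106b, 51.2 under miR-93, 51.4 under miR-25 and 51.2 under cel-miR-67, against 4.47 to 4.55 over all genes. Reads on the 45 genes made up 0.529% of reads on listed genes under miR-106b (95% exact binomial interval 0.526 to 0.532), 0.538% under miR-93 (0.535 to 0.542), 0.503% under miR-25 (0.499 to 0.506) and 0.494% under cel-miR-67 (0.490 to 0.497). With the library size as the total, the order changed: the shares were 0.334%, 0.325%, 0.303% and 0.331%. The miR-25 library was thus lowest on the second total, and the cel-miR-67 library on the first.

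**Figure D1:**
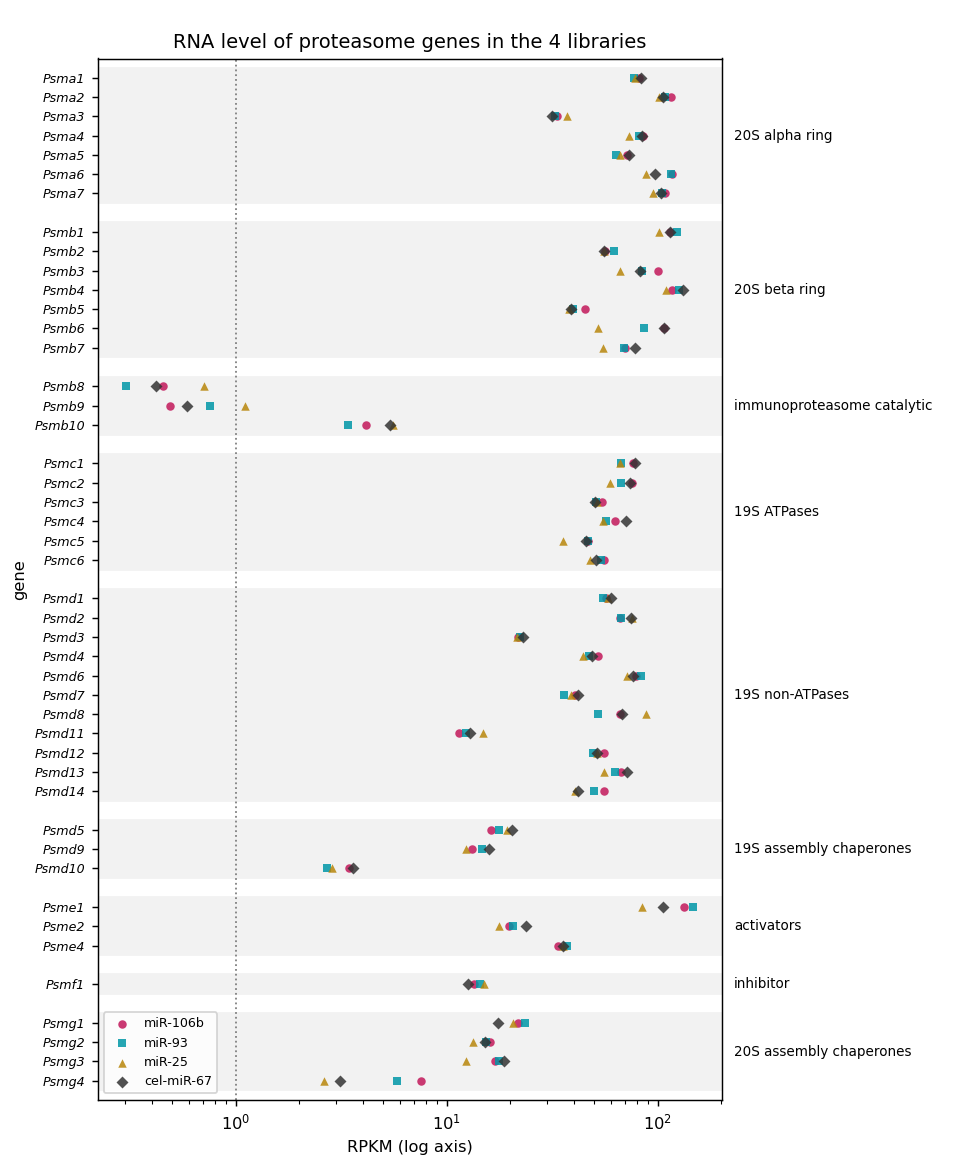
RNA level in RPKM (horizontal log axis) of the 45 proteasome genes (rows, grouped by their place in the complex) in the 4 libraries, 1 point per library; the dotted line marks the cutoff of 1.0. Core and cap genes sit mostly between 31.7 and 132 RPKM under cel-miR-67, while Psmb8 and Psmb9 lie near or below 1.0 in every library.

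Few proteasome genes differed past 1.3-fold, and in each comparison under cel-miR-67 the share was below that of all genes. With miR-106b, 2 of 43 tested members were higher (4.65%, against 11.9% of all 11296 tested genes) and 1 was lower (2.33% against 12.7%). With miR-93, 3 were higher (6.98% against 15.1% of 11280 genes) and 3 were lower (6.98% against 15.6%). With miR-25, 0 were higher (against 19.3% of 11198 genes) and 4 were lower (9.30% against 22.6%). Psmb8 and Psmb9 are the members left out of these counts by the RPKM cutoff. Most members are more abundant than the typical gene, and the share past 1.3-fold was lower among abundant genes in each comparison and direction. Among genes above 10 RPKM in both libraries, 1 of 40 members was higher under miR-106b (8.83% of all such genes) and 0 lower (9.84%), 2 were higher under miR-93 (8.99%) and 1 lower (14.4%), and 0 were higher under miR-25 (13.8%) and 4 lower (21.8%). In all, 11 members passed 1.3-fold with at least 1 mimic: Psmb6, Psmb7, Psmb10, Psmd8, Psmd14, Psmd10, Psme1, Psme2, Psmg1, Psmg3 and Psmg4.

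Counted without a fold cutoff, more of the 43 genes lay below the control than above it under miR-25. There 34 of 43 ratios lay below 0 and 9 above, with a median log2 ratio of -0.12 beside -0.01 over all genes, and 23 intervals lay wholly below 0 against 5 wholly above. With miR-106b 22 ratios were above and 21 below 0, with a median of 0.00, and under miR-93 19 were above and 24 below, with a median of -0.06. This balance around 0 depended on the total used for scaling, while the distance of the members' median from that of all genes did not. Scaling by reads on listed genes adds 0.08 to every log2 ratio under miR-106b, 0.15 under miR-93 and 0.15 under miR-25, and then 25 of 43 ratios under miR-25 were above 0. On that scale the counts became 4 higher and 0 lower under miR-106b (16.7% and 9.08% over all genes), 5 higher and 1 lower under miR-93 (25.1% and 9.65%), and 4 higher and 2 lower under miR-25 (29.3% and 15.9%). Psmb6 and Psmg3 were the 2 called lower under miR-25 on both scales.

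**Figure D2:**
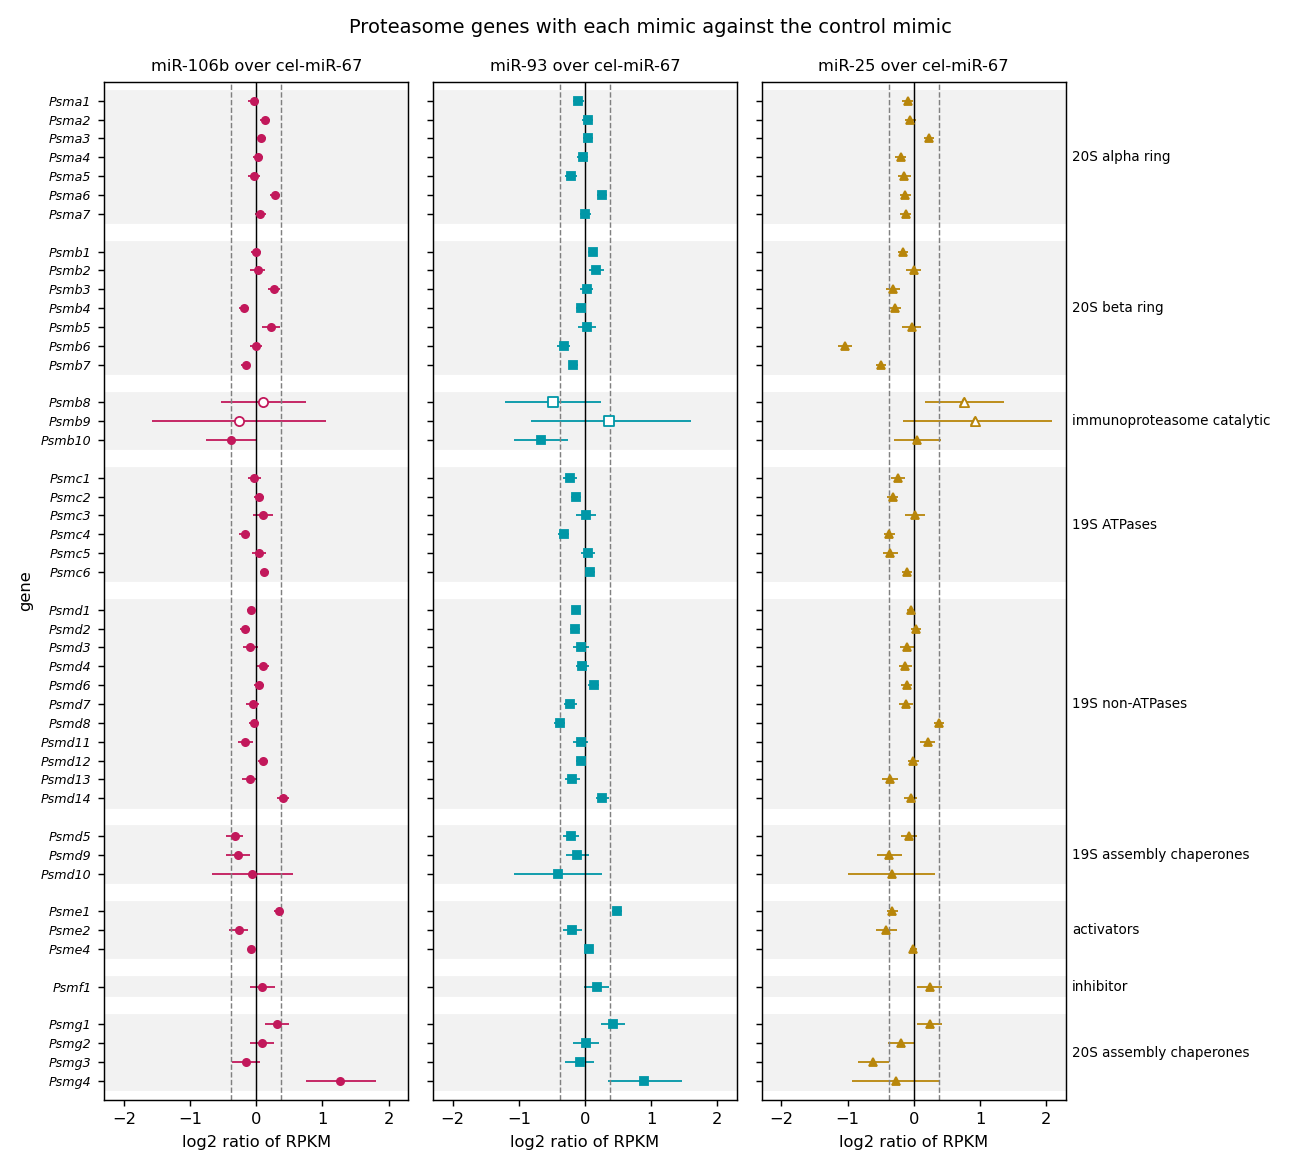
Log2 ratio of RPKM with each mimic over cel-miR-67 (horizontal axis, 1 panel per mimic) for the 45 proteasome genes (rows); bars are exact 95% intervals for counting error, dashed lines mark 1.3-fold, and open symbols are genes under the RPKM cutoff. Psmb6 stands out to the left under miR-25 at -1.04, and Psmg4 to the right under miR-106b at 1.27 and under miR-93 at 0.90.

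The alpha ring, which gates the core and carries no cutting site, showed no call on the deposited values with any of the 3 mimics. Scaling by reads on listed genes made Psma6 a call under miR-93 and Psma3 a call under miR-25, both higher. Its 7 genes had a median of 84.3 RPKM under cel-miR-67 and a coefficient of variation among them of 30.8%. Psma2, the most abundant of them in that library, measured 116 RPKM under miR-106b, 109 under miR-93, 102 under miR-25 and 106.1 under cel-miR-67. Psma3, the least abundant, measured 33.4, 32.7, 37.2 and 31.7 RPKM in the same order. It gave 2750 reads under cel-miR-67 against 2103 for Psma2, and its reads were divided over a gene model of 3829 bases, which lowers its RPKM. The ring's median log2 ratio was 0.06 under miR-106b, 0.00 under miR-93 and -0.12 under miR-25, where scaling by reads on listed genes turned it to 0.02. Centring on the median gene left the miR-25 value at -0.11. With miR-25 6 of the 7 alpha genes were below 0, and Psma3 was the exception at 0.23 (0.16 to 0.30).

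In the beta ring 2 catalytic genes were lower under miR-25. Psmb6 (ENSRNOG00000019551), which carries the caspase-like site, measured 108 RPKM under miR-106b, 86.2 under miR-93, 52.4 under miR-25 and 108 under cel-miR-67. The miR-25 library was thus the lowest of the 4 and the miR-93 library lay between it and the other two. The log2 ratio was -1.04 under miR-25 (interval -1.15 to -0.93, from 1024 and 1751 reads), and 513 of 11198 tested genes lay at or below it. With miR-93 the ratio was -0.32 (-0.42 to -0.22), inside 1.3-fold, and under miR-106b it was 0.00 (-0.09 to 0.09).

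Psmb7 (ENSRNOG00000011732), with the trypsin-like site, measured 70.0, 69.2, 55.4 and 78.1 RPKM under miR-106b, miR-93, miR-25 and cel-miR-67. All 3 mimic libraries were below the control, and the ratio passed the cutoff under miR-25 at -0.50 (-0.57 to -0.42). Scaling by reads on listed genes brought it inside 1.3-fold. Psmb5, the third catalytic gene and the holder of the chymotrypsin-like site, measured 45.4, 39.8, 38.2 and 39.0 RPKM and was the least abundant of the ring. Its log2 ratio under miR-25 was -0.03 (-0.17 to 0.11), so the 3 catalytic genes were unequal in that library.

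Of the beta genes without a cutting site, Psmb4 was the most abundant in the control, at 117, 127, 109 and 132 RPKM in the same order of libraries. Its ratio was lowest under miR-25, at -0.28 (-0.36 to -0.20). Across the 7 beta genes the median log2 ratio was 0.00 under miR-106b, 0.03 under miR-93 and -0.28 under miR-25, beside -0.01 over all genes in the last comparison. Scaling by reads on listed genes made the last value -0.13, and centring on the median gene made it -0.26. Psmb2, which had 55.5 RPKM both under miR-25 and under cel-miR-67, was the only beta gene not below 0 there, at 0.00 (-0.12 to 0.12).

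Of the immunoproteasome genes, Psmb8 and Psmb9 lay under the cutoff for testing, while Psmb10 was near the median of all genes in level. Psmb8 (ENSRNOG00000000456) measured 0.450 RPKM under miR-106b, 0.302 under miR-93, 0.709 under miR-25 and 0.420 under cel-miR-67, from 52, 32, 75 and 37 reads. The miR-25 library was the highest, and its ratio to the control was 0.75 (0.17 to 1.36). Psmb9 (ENSRNOG00000000459) measured 0.488, 0.753, 1.11 and 0.587 RPKM from 12, 17, 25 and 11 reads. Its ratio under miR-25 was 0.92 with an interval of -0.16 to 2.09, so at this depth a difference was not detectable. Psmb10 (ENSRNOG00000019494), the member of this group expressed most, measured 4.15, 3.42, 5.60 and 5.40 RPKM from 123, 93, 152 and 122 reads. It was called lower under miR-93, at -0.66 (-1.07 to -0.26), and under miR-106b, at -0.38 (-0.75 to -0.01), where it lay just past the cutoff, and it was at 0.05 (-0.30 to 0.41) under miR-25. The call under miR-106b was lost with a pseudocount of 0.1 or 1, with centring and with scaling by reads on listed genes, at -0.37, -0.31, -0.377 and -0.30.

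Each immunoproteasome gene was set against the constitutive gene whose place its protein takes. Psmb5 was 92.8 times as abundant per length as Psmb8 under cel-miR-67, 101 times under miR-106b, 132 times under miR-93 and 53.8 times under miR-25. As log2 of Psmb8 over Psmb5 these were -6.54 (-7.05 to -6.06), -6.66 (-7.09 to -6.26), -7.04 (-7.60 to -6.54) and -5.75 (-6.11 to -5.41), and the interval under miR-25 overlapped that of the control. The RPKM of Psmb8 rests on a gene model of 3883 bases, the longest of the 3 immunoproteasome genes. In reads, Psmb5 had 772 and Psmb8 had 37 under cel-miR-67.

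Psmb9 over Psmb6 was -7.52 (-8.52 to -6.68) under cel-miR-67, -7.79 (-8.74 to -6.98) under miR-106b, -6.84 (-7.62 to -6.15) under miR-93 and -5.56 (-6.20 to -4.99) under miR-25. The miR-25 interval lay above that of the control, and the ratio there was 1.96 higher on the log2 scale. In that library Psmb6 was at -1.04 against the control and Psmb9 at 0.92, the latter with an interval that held 0. Psmb10 over Psmb7 was -3.85 (-4.13 to -3.59), -4.08 (-4.35 to -3.82), -4.34 (-4.65 to -4.04) and -3.31 (-3.55 to -3.07) in the same order. There too the miR-25 interval lay just above that of the control, with Psmb7 the gene that was called. In all 4 libraries the RNA of the constitutive gene was the more abundant per length in each pair, by 9.89 times in the closest case. Which form of the assembled proteasome was present was not measured.

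**Figure D3:**
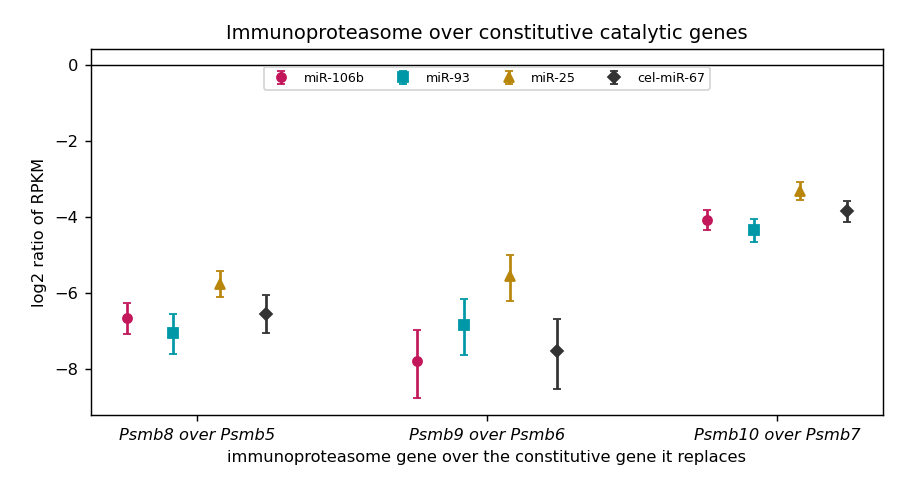
Log2 ratio of RPKM (vertical axis) of each immunoproteasome gene over the constitutive gene it replaces, in the 4 libraries, with exact 95% intervals for counting error. All 12 points lie far below 0, and the miR-25 point is the highest in each pair, at -5.75, -5.56 and -3.31.

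White blood cell markers were low in all cultures. The 3 leukocyte markers found summed to 2.38 RPKM under miR-106b, 2.37 under miR-93, 3.18 under miR-25 and 3.74 under cel-miR-67, with none listed at 0. The 8 macrophage markers summed to 16.5, 19.4, 8.12 and 15.5 RPKM. Under miR-25 4 of 5 tested were called lower (80.0%, against 22.6% of all genes), or 3 with scaling by reads on listed genes. Of 6 tested, 1 was higher under miR-106b (16.7%, against 11.9%) and 2 under miR-93 (33.3%, against 15.1%). The part of such cells in the immunoproteasome values was not tested.

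The ATPases of the cap, which unfold substrates, had no call with any mimic. Psmc1, the most abundant of the 6 in the control, measured 76.7, 67.1, 66.4 and 78.1 RPKM under miR-106b, miR-93, miR-25 and cel-miR-67. Psmc5, the least abundant, measured 46.8, 46.9, 35.6 and 45.6 RPKM. With miR-25 the median log2 ratio of the 6 genes was -0.28, with 5 intervals wholly below 0, and Psmc4 came nearest the cutoff at -0.37 (-0.46 to -0.29). Psmc3 was the exception at 0.02 (-0.14 to 0.17). The medians were 0.04 under miR-106b and -0.06 under miR-93, and scaling by reads on listed genes brought the median under miR-25 to -0.13. Centring on the median gene left it at -0.26.

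Among the 11 non-ATPase genes of the cap 2 were called, each with 1 mimic. Psmd14 (ENSRNOG00000061129), the enzyme that cuts ubiquitin chains from substrates, measured 55.5 RPKM under miR-106b, 50.2 under miR-93, 40.5 under miR-25 and 41.9 under cel-miR-67. The libraries of the mimics with the shared seed were the higher ones. The call was under miR-106b at 0.40 (0.31 to 0.50), beside 0.26 (0.16 to 0.36) under miR-93. Scaling by reads on listed genes made the value under miR-93 a call as well, at 0.41. Psmd8 (ENSRNOG00000037580), a subunit of the lid, measured 66.5, 52.0, 88.1 and 67.8 RPKM. It was lowest under miR-93, at -0.38 (-0.47 to -0.30) just past the cutoff, and highest under miR-25, at 0.38 (0.30 to 0.45) just inside it. Scaling by reads on listed genes made the first -0.24 and a pseudocount of 1 made it -0.377, both inside 1.3-fold, while centring on the median gene and scaling by reads on listed genes made the second a call, at 0.39 and 0.53.

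The other 9 non-ATPase genes were within 1.3-fold with all 3 mimics. Psmd6, a lid subunit and the most abundant in the control, measured 78.9, 83.9, 71.3 and 76.7 RPKM in the order miR-106b, miR-93, miR-25, cel-miR-67. Psmd11, a lid subunit known to strengthen the joint between cap and core, was the least abundant, at 11.5, 12.3, 14.9 and 12.9 RPKM. With miR-25 it was at 0.21 (0.10 to 0.32), 1 of 2 non-ATPase genes whose interval lay wholly above 0, beside Psmd8. The median of the 11 was -0.05 under miR-106b, -0.06 under miR-93 and -0.05 under miR-25. This group was thus centred near the median of all genes in each comparison, unlike the ATPases and the beta ring under miR-25.

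The assembly chaperones of the core held the largest ratio of any member. Psmg4 (ENSRNOG00000039265), which works as a dimer with Psmg3 in building the alpha ring, measured 7.59 RPKM under miR-106b, 5.85 under miR-93, 2.61 under miR-25 and 3.14 under cel-miR-67, from 130, 92, 41 and 41 reads. The 2 mimics with the shared seed gave the higher values, with log2 ratios of 1.27 (0.76 to 1.82) and 0.90 (0.35 to 1.47). With miR-106b 47 of 11296 tested genes lay at or above its ratio. Psmg3 (ENSRNOG00000001273), its partner, did not show the same order: it measured 16.9, 17.8, 12.3 and 18.8 RPKM and was called lower under miR-25, at -0.61 (-0.85 to -0.37). Psmg1, which pairs with Psmg2 at an early step, measured 21.8, 23.4, 20.7 and 17.5 RPKM. Its control value was the lowest of the 4, and the call was under miR-93 at 0.42 (0.24 to 0.60). Scaling by reads on listed genes also made Psmg1 a call under miR-106b, at 0.40, and under miR-25, at 0.39. Psmg2 was within 1.3-fold with each mimic, with ratios from -0.20 to 0.09.

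The 3 chaperones that build the ATPase ring of the cap lay below 0 with all 3 mimics on the deposited values. Their intervals lay wholly below 0 for 2 genes under miR-106b, 1 under miR-93 and 1 under miR-25. Scaling by reads on listed genes put Psmd10 at 0.02 under miR-106b. Its shift of 0.15 also exceeds the distance from 0 of Psmd9 under miR-93 (-0.11) and Psmd5 under miR-25 (-0.08). The class medians stayed below 0 on that scale, at -0.19, -0.06 and -0.19. Psmd5 measured 16.3 RPKM under miR-106b, 17.7 under miR-93, 19.3 under miR-25 and 20.4 under cel-miR-67. Psmd10, also known as gankyrin, measured 3.46, 2.72, 2.87 and 3.61 RPKM. It passed the cutoff under miR-93 at -0.41, but its 39 and 43 reads gave an interval of -1.07 to 0.25, so a difference was not detectable at this depth, and scaling by reads on listed genes or a pseudocount of 1 brought it inside the cutoff. Psmd9 was within 1.3-fold throughout, at -0.27, -0.11 and -0.37.

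The activators, caps other than 19S that open the core without ubiquitin, differed among themselves. Psme1 (ENSRNOG00000019041), 1 of the 2 subunits of the interferon-induced ring PA28, measured 134 RPKM under miR-106b, 147 under miR-93, 84.4 under miR-25 and 105.8 under cel-miR-67, and was the most abundant of the 45 genes in the first 2 libraries. It was called higher under miR-93 at 0.48 (0.41 to 0.55). It was inside the cutoff at 0.34 (0.26 to 0.41) under miR-106b and -0.33 (-0.41 to -0.24) under miR-25. Scaling by reads on listed genes made the value under miR-106b a call, at 0.42. Psme2 (ENSRNOG00000019246), the other subunit of that ring, measured 19.7, 20.7, 17.8 and 23.7 RPKM, with the control highest, and was called lower under miR-25 at -0.41 (-0.57 to -0.26). Scaling by reads on listed genes brought it inside 1.3-fold. The ring's 2 genes thus lay on opposite sides of 0 under miR-106b and under miR-93, where Psme2 was at -0.27 (-0.41 to -0.12) and -0.19 (-0.34 to -0.04).

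Psme4, which encodes the activator PA200, measured 33.8, 37.1, 35.5 and 35.6 RPKM and had the most reads of any member, 6055 under cel-miR-67. Its ratios were -0.07 (-0.12 to -0.03), 0.06 (0.01 to 0.11) and 0.00 (-0.05 to 0.05) under miR-106b, miR-93 and miR-25. Psmf1, which encodes the core-binding inhibitor PI31, measured 13.5, 14.3, 15.01 and 12.7 RPKM. All 3 mimic libraries were above the control, with ratios of 0.09 (-0.10 to 0.28), 0.18 (-0.01 to 0.37) and 0.24 (0.06 to 0.43), none of them called. Scaling by reads on listed genes made the value under miR-25 a call, at 0.39.

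The mimics were also set against each other without the control library. These direct ratios were not recomputed with other scalings. The shift from scaling by reads on listed genes differs between miR-106b (0.08) and miR-25 (0.15). Calls near the cutoff, such as Psma6 and Psmc5 below, could change with it. Values just inside the cutoff could become calls with another scaling. Among these were Psmd11 at 0.375 with miR-25 against miR-106b and Psmg4 at -0.376 with miR-93 against miR-106b. The mimics that share a seed gave no call on the deposited values. Under miR-93 against miR-106b 0 of 43 members were higher (7.30% of 11391 tested genes were) and 0 were lower (8.21% were). The largest members' ratios were -0.38 (-0.78 to 0.02) for Psmg4, -0.35 (-0.43 to -0.27) for Psmd8, -0.35 (-0.98 to 0.27) for Psmd10 and -0.32 (-0.42 to -0.23) for Psmb6. With miR-25 against miR-106b 2 members were higher (4.65%, against 22.1% of 11183 genes) and 8 were lower (18.6%, against 23.0%), the last share being near the background.

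The 2 members higher under miR-25 than under miR-106b were Psmb10, at 0.43 (0.08 to 0.79), and Psmd8, at 0.41 (0.34 to 0.48). Those lower were Psmg4 at -1.54 (-2.08 to -1.02), Psmb6 at -1.04 (-1.15 to -0.93), Psme1 at -0.66 (-0.74 to -0.59), Psmb3 at -0.59 (-0.68 to -0.50), Psmg3 at -0.46 (-0.69 to -0.23), Psmd14 at -0.45 (-0.54 to -0.36), Psma6 at -0.41 (-0.48 to -0.34) and Psmc5 at -0.39 (-0.50 to -0.29). On the deposited values Psma6, an alpha gene, and Psmb3, a beta gene, were within 1.3-fold of the control with all mimics. Both were above 0 under miR-106b and below 0 under miR-25. Scaling by reads on listed genes made Psma6 a call under miR-93. For the 14 core genes the median of this ratio was -0.19, with 13 of 14 below 0, and for the 17 cap genes it was -0.15, with 13 of 17 below 0. The median over all genes was 0.00.

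Proteins that join or assemble the proteasome but carry other symbols were called in a few cases. Of 12 such genes tested, 2 were higher and 1 lower under miR-106b (16.7% and 8.33%, against 11.9% and 12.7% of all genes), 0 higher and 1 lower under miR-93 (0% and 8.33%, against 15.1% and 15.6%), and 0 higher and 3 lower under miR-25 (0% and 25.0%, against 19.3% and 22.6%). The share lower under miR-25 is near that of all genes, and 2 were lower there with scaling by reads on listed genes. Shfm1, the older symbol of Sem1, a small lid subunit, measured 37.8 RPKM under miR-106b, 24.5 under miR-93, 16.8 under miR-25 and 25.6 under cel-miR-67, with ratios of 0.56, -0.07 and -0.61. Pomp, the chaperone that completes the core, measured 118, 94.3, 75.8 and 110.1 RPKM, at -0.54 under miR-25. The third lower under miR-25 was Usp14, a cap-bound enzyme that trims ubiquitin, at -0.51. Adrm1, a ubiquitin receptor of the cap, was within 1.3-fold, at -0.03, -0.10 and -0.20.

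Ube3c, a ligase that binds the proteasome and helps it finish hard substrates, was lower with the 2 mimics of the shared seed. It measured 13.7 RPKM under miR-106b, 14.4 under miR-93, 23.4 under miR-25 and 24.7 under cel-miR-67, with ratios of -0.85 and -0.78 for the first 2 and -0.08 for miR-25. Akirin2, which brings proteasomes into the nucleus, was called higher under miR-106b, at 0.385. It was just inside the cutoff under miR-93, at 0.376.

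Among genes of the factors that control proteasome genes, Nfe2l1, Nfe2l2 and Mafk were called lower under both mimics of the shared seed. Of 9 such regulators, 3 were lower under miR-106b (33.3%, against 12.7% of all genes), 3 under miR-93 (33.3%, against 15.6%) and 1 under miR-25 (11.1%, against 22.6%), and 0 were higher. With scaling by reads on listed genes these became 2, 3 and 0, with 2 higher under miR-25, and Nfe2l1 was no longer called under miR-106b. Nfe2l1, the factor that raises proteasome genes when the protease is inhibited, measured 31.9, 28.8, 37.0 and 42.0 RPKM under miR-106b, miR-93, miR-25 and cel-miR-67, with ratios of -0.40, -0.54 and -0.18. Nfe2l2, its relative in the antioxidant response, measured 33.2, 30.9, 52.5 and 50.6 RPKM, with ratios of -0.61, -0.71 and 0.05. Mafk, a small Maf protein that binds DNA together with both, measured 21.9, 10.8, 34.9 and 36.3 RPKM, at -0.73 under miR-106b and -1.75 under miR-93. With miR-25 the called gene was Nfe2l3, another relative, at -0.42.

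Among 13 genes for ubiquitin itself, its activation and its delivery, 4 were lower under miR-106b (30.8%, against 12.7% of all genes), 5 under miR-93 (38.5%, against 15.6%) and 3 under miR-25 (23.1%, against 22.6%), and 3 were higher under miR-25 (23.1%, against 19.3%). Both shares under miR-25 are near those of all genes. Rps27a, which encodes ubiquitin joined to a ribosomal protein, measured 616, 393, 363 and 566 RPKM in the order of libraries above, at -0.64 under miR-25. The activating enzyme Uba6 was at -0.55 under miR-106b. Nploc4, a cofactor of the unfoldase Vcp, was at -0.66 under miR-93. Higher under miR-25 were the receptor Sqstm1, at 0.60, and the shuttle Rad23b, at 0.40.

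Of 12 muscle ubiquitin ligases, the enzymes that choose substrates, 0 were higher and 1 lower under miR-106b (0% and 8.33%, against 11.9% and 12.7% of all genes), 3 higher and 1 lower under miR-93 (25.0% and 8.33%, against 15.1% and 15.6%), and 2 higher and 2 lower under miR-25 (16.7% each, against 19.3% and 22.6%). Trim63, the atrophy ligase also known as MuRF1, measured 32.2, 36.7, 20.4 and 35.7 RPKM, at -0.81 under miR-25. Fbxo32, the atrophy ligase atrogin-1, was at 0.48 under miR-93. Mdm2, the ligase of p53, measured 18.8, 16.4, 25.1 and 14.5 RPKM, at 0.79 under miR-25, where Trim54 was at -0.47. Nedd4 was at 0.43 under miR-93 and 0.42 under miR-25. Trim54 was at 0.45 under miR-93, and Fbxo30 was at -0.46 under miR-106b and -0.42 under miR-93. With scaling by reads on listed genes the counts became 2 higher and 0 lower under miR-106b, 4 and 0 under miR-93, and 3 and 1 under miR-25. Fbxo30 was then no longer called.

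Of 15 interferon and antigen presentation genes tested, 3 were higher and 1 lower under miR-106b (20.0% and 6.67%, against 11.9% and 12.7% of all genes), 3 higher and 4 lower under miR-93 (20.0% and 26.7%, against 15.1% and 15.6%), and 3 higher and 3 lower under miR-25 (20.0% each, against 19.3% and 22.6%). The shares under miR-25 are near those of all genes. Tap1, whose gene lies next to Psmb8 and Psmb9 in RefSeq's rat annotation and whose protein carries peptides cut by the proteasome, measured 2.12, 2.20, 2.10 and 1.61 RPKM, with ratios of 0.40, 0.46 and 0.39. Irf1, a factor that acts on the immunoproteasome genes, measured 3.97, 4.36, 7.80 and 5.73 RPKM, with ratios of -0.53, -0.39 and 0.44. Irf7 was at -1.10 under miR-25. Canx, a chaperone of the endoplasmic reticulum, was the highest of the list with each mimic, at 0.97, 0.78 and 1.11, while Calr was lower, at -0.57 under miR-93 and -0.70 under miR-25, and B2m was at -0.54 under miR-93. These comparisons share the control library, so a low or high control value enters all 3 ratios.

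**Figure D4:**
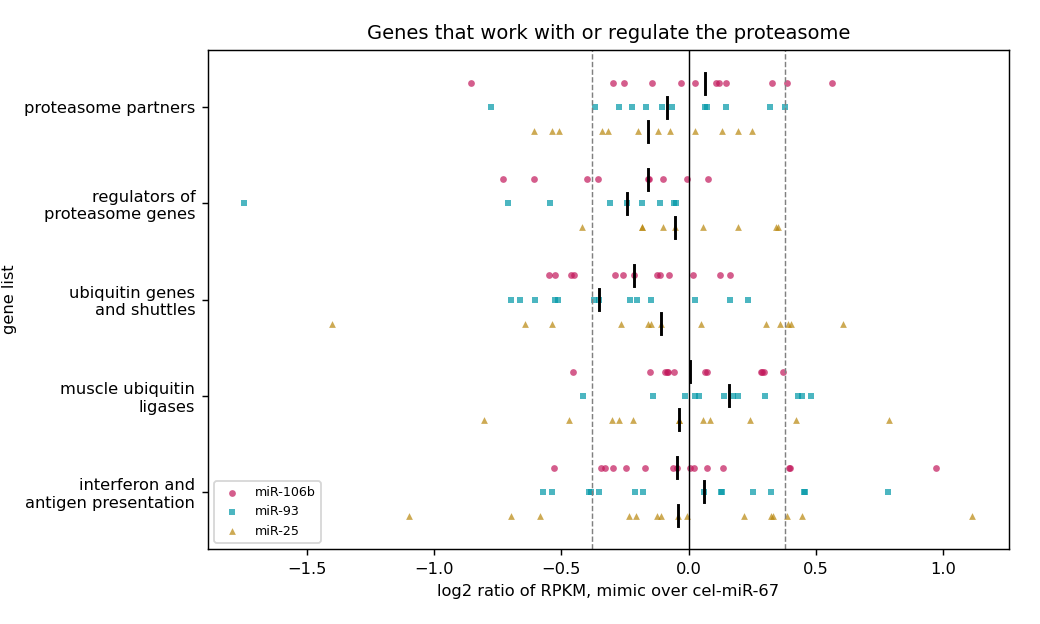
Log2 ratio of RPKM over cel-miR-67 (horizontal axis) of the tested genes in 5 lists around the proteasome (vertical axis), 1 point per gene and colour per mimic; black bars are list medians and dashed lines mark 1.3-fold. The regulators lie mostly left of the middle under miR-106b and miR-93, with medians of -0.16 and -0.24, and Mafk is the far point at -1.75.

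Promoter letters for the 3 constitutive catalytic genes are shown because their RNA was unequal under miR-25. RefSeq promoters, 250 bases before to 50 after the start of each gene in build GRCr8, were matched by symbol for 41 of the 45 genes. Psma7, Psmd6, Psmd12 and Psmd14 had no match. On both strands, 3 motifs were searched: TGACNNNGC, the core of the element bound by Nfe2l1 and Nfe2l2, CCAAT, bound by NF-Y, and CCGGAAG, bound by factors of the ETS family. The stretches of Psmb5 (chr15:32047421-32047449, minus strand), Psmb6 (chr10:55737854-55737882, plus strand) and Psmb7 (chr3:42827508-42827534, minus strand) below have the motif in capitals, beginning 60, 24 and 54 bases before the start.
Psmb5: cgtgaagctgTGACGTCGCggcgttgccc
Psmb6: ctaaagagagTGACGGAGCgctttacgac
Psmb7: cccagctgcgCCGGAAGtgtaaattct
TGACNNNGC lay in 8 of the 41 promoters (19.5%), against 12.1% of all 33469 promoters of that length, and besides Psmb5 and Psmb6 these were Psma3, Psmb2, Psmd1, Psmd3, Psmd9 and Psme4. CCGGAAG lay in 13 (31.7%, against 8.75%), and CCAAT in 20 (48.8%, against 37.5%). Psmb5 and Psmb6 both hold TGACNNNGC, and under miR-25 their ratios were -0.03 and -1.04. A match is a description of these letters and was not tied to binding here.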

How the data were processed

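The 4 libraries, 1 per mimic, were single-end short reads of RNA. Per the labels and the study's methods, the authors mapped reads with STAR 2.7 to the rat genome Rnor_6.0 with its Ensembl annotation, rounded gene counts and deposited RPKM computed with edgeR. The counting program and its strand setting are not given in the sources used here. In RefSeq's rat genes (GRCr8, names and neighbours only), 13 of the 46 members overlap another gene, among them Psmb1, Psmd8, Psmd14 and Psme1. Without a known strand setting, such reads cannot be told apart. Core and cap genes also have processed copies elsewhere in rodent genomes, whose reads may be shared.

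The deposited RPKM were used as they stand, with no pseudocount. Whole reads were recovered for all 15731 genes from ratios between libraries, within 1e-12, and from gene model lengths, within 1e-06. For a gene whose 4 counts share a factor this gives too few reads and too wide an interval; a factor was multiplied back for 654 genes. Reads on listed genes were 18797234 under miR-106b, 16520057 under miR-93, 16460108 under miR-25 and 15175185 under cel-miR-67. Intervals are exact (Clopper-Pearson) at 95% and cover counting error only, since reads without molecular identifiers are not independent molecules. Each mimic had 1 library, so no test was made and no p-value is given. Ratios were taken over the whole table, with genes above RPKM 1.0 in both libraries called past 1.3-fold. The shares called over all tested genes are given beside the members' counts.

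The members, the gene lists and the naming rule were chosen with earlier results of these data known. Values in all libraries are given for the immunoproteasome genes and the genes they replace, the activators and the inhibitor, the most and least abundant gene of each other class in the control, and every member called. Of other lists, at most 2 called genes per direction and mimic and a few preset genes were named, some of which are not reported here. Usp14, Psma6, Psmb2, Psmb3 and other genes outside this rule were named after their values were seen. Alternatives were RPKM cutoffs of 2.0 and 10, cutoffs of 1.5-fold and 2-fold, pseudocounts of 0.1 and 1, and 2 other scalings. The read recovery was tested on simulated data. Protein identity was not analysed here. The software was Python 3.11.15 with pandas 2.3.3, scipy 1.17.1 and numpy 2.4.6, and plots were drawn in matplotlib 3.10.9.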

Additional observations from a re-analysis of the deposited data

How the results depend on the processing

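With 1 library per mimic, no library could be left out, no paired analysis was possible, and no result comes from a test. No member called in a comparison changed sign in that comparison under any alternative, whereas some ratios near 0 did, such as Psmd14 under miR-25 (-0.05, or 0.10 with scaling by reads on listed genes). Of 192 recomputed ratios of named members, 174 moved by less than their counting interval and 18 moved by more. All 18 were among the 48 recomputed with scaling by reads on listed genes, of which 30 moved by less. Of 66 recomputed counts, 40 stayed within 1.5 times. Members higher and lower under miR-106b (2 and 1) became 1 and 0 at RPKM above 10, at 1.5-fold and at 2-fold, and 4 and 0 with scaling by reads on listed genes. The count lower was also 0 with centring on the median gene and with pseudocounts of 0.1 and 1. With miR-93 (3 and 3) they became 1 and 1 at 1.5-fold, 0 and 0 at 2-fold, and 5 and 1 with that scaling, and 1 was lower at RPKM above 10 and with a pseudocount of 1. With miR-25 (0 and 4), 1 was higher with centring and with RPKM above 1.0 in either library, 2 with no filter, and 4 were higher and 2 lower with scaling by reads on listed genes, while 2 were lower at 1.5-fold and 1 at 2-fold.

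Of 189 class medians 177 moved by less than their members' typical interval, and the rest moved with that same scaling: the alpha ring to 0.147, 0.148 and 0.0232 under miR-106b, miR-93 and miR-25, the beta ring to 0.17 and -0.13 under miR-93 and miR-25, the ATPases to 0.0836 and -0.13, the non-ATPases to 0.0824 and 0.10, and the activators to 0.00878, 0.21 and -0.18 with the 3 mimics. A pseudocount of 1 compressed the pairs by construction: Psmb8 over Psmb5 became -5.00, -4.97, -4.52 and -4.82 under miR-106b, miR-93, miR-25 and cel-miR-67, Psmb9 over Psmb6 -6.19, -5.64, -4.66 and -6.10, and Psmb10 over Psmb7 -3.78 under miR-106b and -3.99 under miR-93. With the library size as total, the 45 genes held 0.334%, 0.325%, 0.303% and 0.331% of reads. Depth limits Psmb8, Psmb9, Psmd10 and Psmg4, which rest on 11 to 130 reads per library.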
